A study of Homo sapiens with 23 samples.

Results

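The response to 4 h of Src induction was measured in MCF-10A-ER-Src cells that carried a control siRNA. MCF-10A is an immortalized, non-transformed human mammary epithelial line, and the ER-Src derivative holds the Src tyrosine kinase joined to an estrogen receptor domain, a fusion whose kinase is switched on by tamoxifen. The members were chosen by their sample titles and not by any measured value: 3 arrays titled siNEG_TAM_04hr and 3 titled siNEG_EtOH_04hr, 6 of the 23 expression arrays of the series, compared over all 19777 genes. The series holds 8 groups, made by siRNA (siSTAT3, against the transcription factor STAT3, or siNEG, a non-targeting pool), treatment (TAM or EtOH) and time (4 or 24 h).

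Cells of the TAM group received siNEG and then 1 µM 4-hydroxytamoxifen (TAM) for 4 h, and cells of the EtOH group received siNEG and then ethanol (EtOH), the vehicle, for 4 h. Both groups shared the ER-Src cell line, 25 nM of siRNA, 48 h of growth before treatment and a medium with EGF, hydrocortisone, insulin, cholera toxin and charcoal-stripped horse serum, so the EtOH cells were also exposed to a growth factor and a glucocorticoid. The contrast therefore holds tamoxifen itself as well as the kinase it activates, in a single engineered line. The methods speak of biological replicates, but the sample descriptions do not say whether they came from separate cultures, and p-values here measure the spread between these arrays.

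Src is a tyrosine kinase that sits under growth factor and integrin receptors and relays their signals to ERK, to STAT3 and to NF-κB. STAT3 is phosphorylated by Src itself and by the JAK kinases that sit on cytokine receptors of the IL6 family, enters the nucleus and raises genes of inflammation, survival and its own inhibition, above all SOCS3. NF-κB is held in the cytoplasm by IκB proteins until a signal removes them, and it drives many chemokine and cytokine genes, IL6 among them, so that the pathways feed each other.

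The arrays carried 54675 probe sets, each a group of short oligonucleotides that reads out a stretch of a transcript. The authors used MAS5 to turn the probe intensities of each array into signals in arbitrary linear units, and a gene with several probe sets is given here by the brightest, taken as a mean of log2 signals over all arrays. Differences are log2 signal in TAM cells minus log2 signal in EtOH cells, ± the standard error (SE) of a limma fit to all 23 arrays, and means of signals are given ± SD (n = 3 arrays each). A gene is said to rise or fall when limma's p, adjusted over all probe sets by the Benjamini-Hochberg method, is under 0.05. Signals say nothing of the level of a gene against another, since probe sets differ in brightness. The dimmer probe sets of a called gene did not always pass: 1 of 8 fell for KLF12 and 1 of 6 for SOX4.

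Median signal was 73.5 to 76.8 units on the TAM arrays and 76.7 to 85.3 units on the EtOH arrays, and signals over 100 units made up 44.6% to 45.2% of TAM arrays and 45.4% to 46.9% of EtOH arrays. For ACTB, the 3′ over 5′ signal, a sign of RNA integrity, was 1.32 to 1.34 on TAM arrays and 1.24 to 1.44 on EtOH arrays. Between replicates of a group, 24944 probe sets differed on average by log2 0.178 to 0.227 in size. TAM replicate 1 stood apart for a set of cytokine and chemokine genes: CXCL1, CXCL3, CXCL8, IL6, CXCL2, LIF and CSF3 were all lower on it than on the other TAM arrays, and their results are given with and without it. Leaving out the lowest TAM array of these genes must raise their differences, so a pass without it is no added support. Over the genes that rose TAM replicate 1 was the lowest TAM array for 33.2%, against 31.3% over all genes. Over the genes that fell it was the highest TAM array for 41.5%, against 28.9% over all genes. TAM replicate 2 was the lowest for 50.2% of the falls, against 34.9% over all genes, and the highest for 47.4% of the rises, against 36.7%.

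The cells carried markers of basal mammary epithelium in both groups. KRT5, a basal keratin, had 16277, 18817 and 16058 units on the TAM arrays, against 15129, 15179 and 15061 units on the EtOH arrays, and KRT14, its partner, had 18481, 20389.9 and 17551 units on the TAM arrays, against 14936, 13533 and 15453 units on the EtOH arrays. The luminal keratin KRT18 was also bright, at 15760.0, 17492 and 14343 units on the TAM arrays, against 14385, 12874 and 14328 units on the EtOH arrays. The luminal hormone receptor PGR lay at 4.89, 11.4 and 17.7 units on the TAM arrays, against 17.9, 4.33 and 5.84 units on the EtOH arrays. The pan-leukocyte marker PTPRC had 56.1, 51.1 and 23.3 units on the TAM arrays, against 55.6, 39.2 and 29.4 units on the EtOH arrays, and the endothelial cadherin CDH5 had 8.27, 3.21 and 24.7 units on the TAM arrays, against 19.7, 36.4 and 13.7 units on the EtOH arrays. GATA3, another luminal marker, averaged 1223 units in TAM cells and 1419 units in EtOH cells. None of the 9 immune, 10 endothelial or 11 luminal markers measured passed the test. Of 10 fibroblast markers COL1A1 fell, and DCN averaged 2987 units in TAM cells and 2750 units in EtOH cells. The summed signal of the fibroblast markers was 5148 to 5312 units on TAM arrays and 4985 to 5281 units on EtOH arrays. The summed signal of the immune markers was 943 to 1083 units on TAM arrays and 974 to 1021 units on EtOH arrays, and that of the endothelial markers 629 to 713 units on TAM arrays and 789.8 to 980.2 units on EtOH arrays, the part of which in other results was not tested. The human genes SRC and ESR1 did not pass. The paper describes the kinase of the fusion as v-Src, joined to only a part of the receptor. Whether the SRC and ESR1 probe sets read the fusion transcript was not tested, so their signals are no measure of ER-Src. SRC had 209, 336 and 296 units on the TAM arrays, against 241, 311 and 223 units on the EtOH arrays (log2 0.11, adjusted p = 0.968). ESR1 had 145, 207 and 129 units on the TAM arrays, against 299.9, 246 and 185 units on the EtOH arrays (log2 -0.60, adjusted p = 0.233).

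After 4 h of TAM, 331 of 19777 genes rose (1.67%) and 313 fell (1.58%). The rises were larger: their median log2 difference was 0.69, and that of the falls -0.58, with a median of -0.06 over all genes. Among the risen genes 82 exceeded a log2 difference of 1 and 8 exceeded 3, and among the fallen genes 42 were under -1 and 1 was under -3. At stricter limits, p under 1e-04 and an absolute log2 difference over 0.5, 189 genes rose (0.956%) and 110 fell (0.556%). The 3 TAM and 3 EtOH arrays did not overlap for 3945 genes (19.9%), against 644 genes called, so lack of overlap alone also marks many genes that were not called. The gene lists below were not tested as sets. Their counts are to be read beside the 1.67% and 1.58% over all genes, and 1 or 2 called genes say little of a list.

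The number of falls rested more on the scaling than the number of rises. With the medians of all arrays made equal, 398 genes rose and 135 fell, and the share of rises among called probe sets was 78.7%, against 55.1% as deposited. A fit to the 6 arrays alone, with its spread estimated from fewer arrays, called 36 rises and 11 falls. Of the 30 leading genes described below 16 passed in it, 12 of the 15 rises but only 4 of the 15 falls. Of 154 called genes among those examined by name, 20 passed in the fit to the 6 arrays alone and 134 did not. With all 8 groups in the fit, 106 of the 154 kept their call when each array was left out in turn and under the other scalings, filters and the replicate block. The 30 leading genes were among them, and 13 of the 106 did not pass when only the 4 h arrays were fitted. The filter of at least 100 units of mean signal removed IL20 and AGT, so these genes were not tested under it. For the other 48 the array left out, the scaling or the prior variance under which they did not pass is given beside them, except that the losses with the replicate block are only counted.

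**Figure D1:**
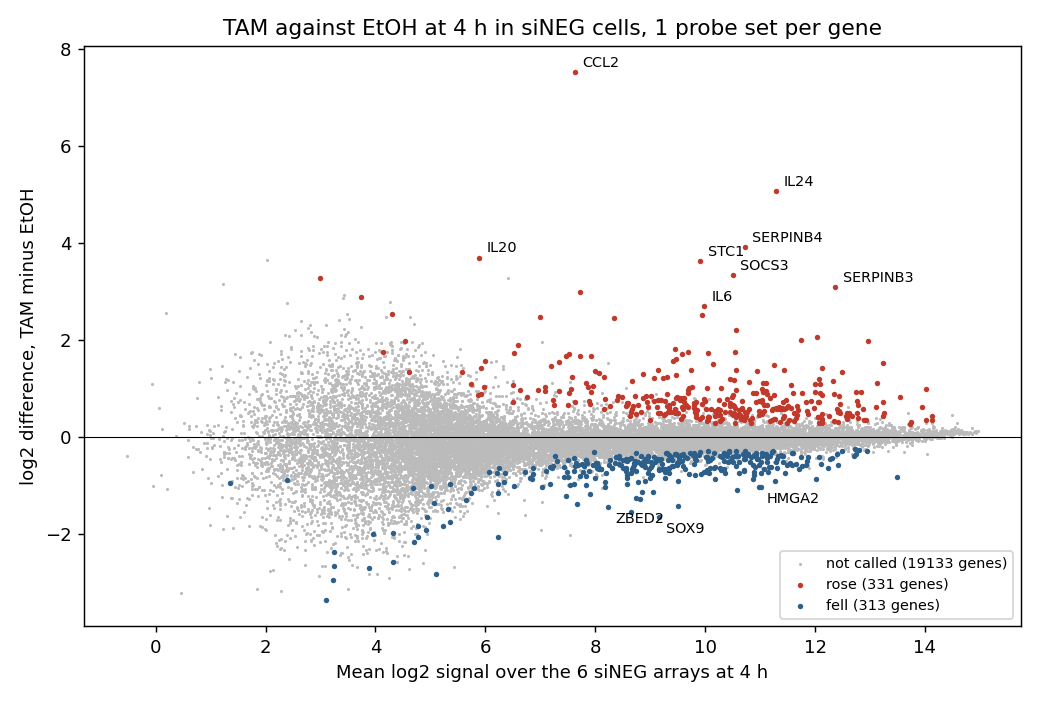
Log2 difference between TAM and EtOH cells (vertical axis) against mean log2 signal over the 6 arrays (horizontal axis), with a point for each of 19777 genes. The 331 genes that rose (red) reach a log2 difference of 7.53 (CCL2), while the falls (blue, 313 genes) reach beyond -2 only at low signal, where genes that were not called (grey) scatter as widely.

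The leading rises were secreted factors, protease inhibitors and a brake on STAT3. These 15 genes had the largest rises among genes past the stricter limits with a mean of at least 100 units in the group with the higher signal and arrays that did not overlap. CCL2, a chemokine that attracts monocytes, had 2354, 2898 and 2842 units on the TAM arrays, against 18.3, 9.04 and 18.7 units on the EtOH arrays. Every TAM array was over 100-fold above every EtOH array, a log2 difference of 7.53 ± 1.22 (adjusted p = 0.00165). The EtOH values are so low that the fold is loosely set: after 16 units were added to every signal the log2 difference of CCL2 was 6.45.

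A pair of cytokines of the IL20 subfamily, which signal through JAK and STAT3 in epithelial cells, were also among them. IL24 had 14339, 15679.7 and 13612 units on the TAM arrays, against 413, 469 and 412 units on the EtOH arrays, a 33.7-fold difference (log2 5.08 ± 0.56, adjusted p = 3.74e-05). IL20, its neighbor on chromosome 1, had 207, 227 and 205 units on the TAM arrays, against 21.0, 4.34 and 48.2 units on the EtOH arrays, a log2 difference of 3.70 ± 0.71 (adjusted p = 0.00726) that was 2.65 after 16 units were added. In both genes each TAM array was several times above each EtOH array, but IL20 was dim and did not pass when only the 4 h arrays were fitted.

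IL6, the cytokine that activates STAT3 through the receptor subunit IL6ST, had 1749.8, 3197 and 3069.5 units on the TAM arrays, against 328, 454 and 418 units on the EtOH arrays. Every TAM array was above every EtOH array, as the rule of choice required, although TAM replicate 1 was well under the other TAM arrays. The log2 difference was 2.70 ± 0.27 (adjusted p = 1.35e-05). Without TAM replicate 1 it was 2.98 (adjusted p = 1.33e-05). SOCS3, which binds JAKs and IL6ST and shuts the pathway off, had 4565, 4524 and 4739.9 units on the TAM arrays, against 425, 482 and 459.9 units on the EtOH arrays. The replicates were tight in both groups and the difference was 10.1-fold (log2 3.34 ± 0.34, adjusted p = 1.75e-05).

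Serpins, inhibitors of proteases, made up 5 of the 15 leading rises, 4 of them from clade B, whose members mostly stay inside the cell. SERPINB4 had 6502, 7279 and 5957 units on the TAM arrays, against 417, 447 and 438 units on the EtOH arrays, a 15.1-fold difference (log2 3.92 ± 0.52, adjusted p = 2.41e-04). SERPINB3 had 14936, 16498 and 14971 units on the TAM arrays, against 1768, 1796 and 1869 units on the EtOH arrays, an 8.53-fold difference (log2 3.09 ± 0.33, adjusted p = 2.42e-05). These are the squamous cell carcinoma antigens, near-identical neighbors on chromosome 18 that inhibit cathepsins and related proteases, and probe sets of either may read both.

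SERPINB13, another cathepsin inhibitor of the same cluster, had 601, 622 and 569 units on the TAM arrays, against 75.6, 87.4 and 64.6 units on the EtOH arrays, a 7.93-fold difference (log2 2.99 ± 0.18, adjusted p = 5.72e-08). SERPINB1, which inhibits neutrophil elastase and lies in another clade B cluster on chromosome 6, had 6572, 7229 and 6698 units on the TAM arrays, against 1636, 1751 and 1737 units on the EtOH arrays. Its difference of log2 2.00 ± 0.09 was among the most precise of the leading genes (adjusted p = 1.59e-09). SERPINB5, the clade B serpin maspin, had 9358, 9864 and 9500.0 units on the TAM arrays, against 9739, 10415 and 10226 units on the EtOH arrays, and did not pass the test (log2 -0.08, adjusted p = 0.783). Over clade B, 4 of 11 measured genes rose and 0 fell, with a median log2 difference of 0.25 beside -0.06 over all genes. SERPINA1, the acute-phase elastase inhibitor alpha-1-antitrypsin, had 8424, 8257 and 9137 units on the TAM arrays, against 2004, 2041 and 2081 units on the EtOH arrays, a 4.21-fold difference (log2 2.07 ± 0.14, adjusted p = 1.25e-07).

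The remaining leading rises encode secreted hormones, matrix proteins and a regulator of glycogen. STC1, the glycoprotein hormone stanniocalcin 1, had 3424, 3755 and 3043 units on the TAM arrays, against 262, 269.8 and 292 units on the EtOH arrays, a 12.4-fold difference (log2 3.63 ± 0.26, adjusted p = 3.53e-07). TNC, the matrix protein tenascin C that appears in wounds and tumor stroma, had 2017, 2548 and 2601 units on the TAM arrays, against 431, 368 and 443 units on the EtOH arrays, a 5.75-fold difference (log2 2.52 ± 0.14, adjusted p = 3.15e-08). ADAMTS9, a secreted protease of matrix proteoglycans, had 761, 712 and 825 units on the TAM arrays, against 135, 119 and 166 units on the EtOH arrays (log2 2.46 ± 0.21, adjusted p = 3.42e-06). The groups were far apart in all 3 genes, and the other probe sets of STC1 and another of TNC rose too.

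AGT, the precursor of angiotensin and an acute-phase gene in liver, had 266, 327 and 316 units on the TAM arrays, against 72.6, 75.6 and 28.8 units on the EtOH arrays. All TAM arrays were above 200 units and all EtOH arrays under 100, with EtOH replicate 3 the lowest (log2 2.48 ± 0.41, adjusted p = 0.00233). PPP1R3B, the subunit that brings protein phosphatase 1 to glycogen, had 3164, 3499 and 3116 units on the TAM arrays, against 705, 768 and 651 units on the EtOH arrays, a 4.61-fold difference (log2 2.20 ± 0.11, adjusted p = 7.36e-09).

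**Figure D2:**
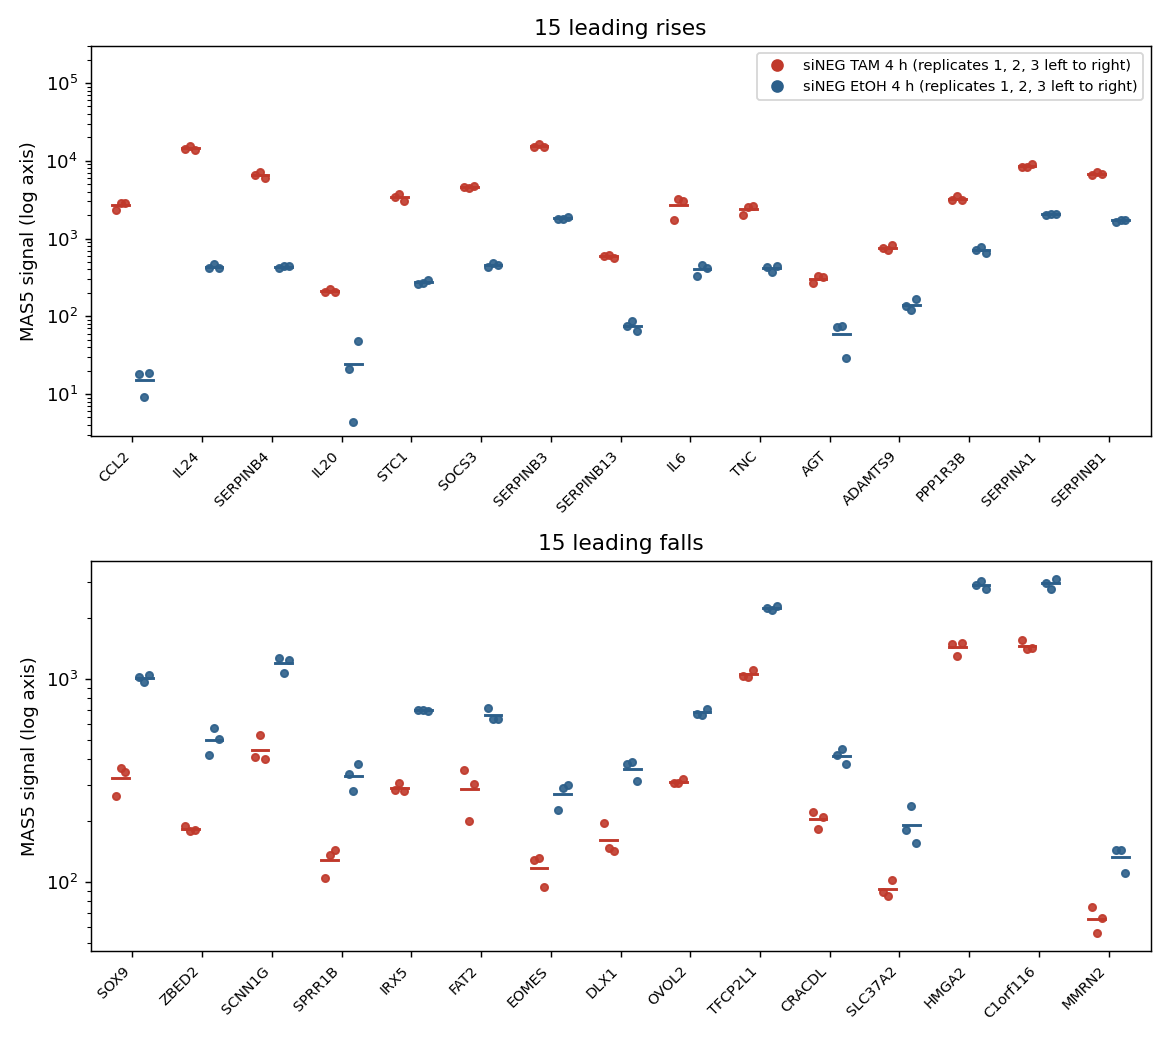
MAS5 signal (log axis) of the 15 leading rises (top) and the 15 leading falls (bottom) on each siNEG array at 4 h, with TAM in red left of EtOH in blue, points for replicates and bars for group means. No gene has TAM and EtOH points that overlap, as the rule of choice required. The rises span 4-fold (SERPINB1) to over 100-fold (CCL2, whose fold is loosely set by its low EtOH signals) while the falls span 2.02-fold (MMRN2) to 3.14-fold (SOX9).

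The 250 bases before the start site are shown for 4 of the risen genes, because they hold a match to a motif of STAT3, NF-κB or AP-1, the factors at the end of the pathways Src feeds. The sequences are those of RefSeq on GRCh38.p14, read 5′ to 3′ on the strand of the gene, with the matches in capitals. The windows are chr7:22726950-22727199 (plus strand) for IL6, chr4:74099196-74099445 (minus strand) for CXCL2, chr1:230714123-230714372 (minus strand) for AGT and chr18:63587093-63587342 (plus strand) for SERPINB13. IL6 and CXCL2 hold an NF-κB match, and in CXCL2 the match occurs on both strands, offset by a base, as an overlapping pair of matches in a stretch of 11 bases. AGT holds a STAT match and SERPINB13 an AP-1 match.
IL6: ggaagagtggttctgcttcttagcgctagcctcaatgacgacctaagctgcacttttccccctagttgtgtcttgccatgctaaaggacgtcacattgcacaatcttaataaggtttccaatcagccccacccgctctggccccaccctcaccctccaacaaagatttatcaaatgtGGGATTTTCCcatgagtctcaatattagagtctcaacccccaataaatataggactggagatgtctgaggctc
CXCL2: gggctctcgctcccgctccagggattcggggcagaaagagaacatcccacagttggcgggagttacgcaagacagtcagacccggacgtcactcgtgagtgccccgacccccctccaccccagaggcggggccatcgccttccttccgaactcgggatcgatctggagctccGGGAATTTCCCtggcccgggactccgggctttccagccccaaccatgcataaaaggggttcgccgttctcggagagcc
AGT: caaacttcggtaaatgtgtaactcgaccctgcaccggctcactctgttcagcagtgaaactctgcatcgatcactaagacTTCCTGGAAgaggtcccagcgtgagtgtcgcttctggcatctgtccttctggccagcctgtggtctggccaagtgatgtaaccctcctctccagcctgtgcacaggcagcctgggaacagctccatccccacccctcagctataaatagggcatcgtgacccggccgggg
SERPINB13: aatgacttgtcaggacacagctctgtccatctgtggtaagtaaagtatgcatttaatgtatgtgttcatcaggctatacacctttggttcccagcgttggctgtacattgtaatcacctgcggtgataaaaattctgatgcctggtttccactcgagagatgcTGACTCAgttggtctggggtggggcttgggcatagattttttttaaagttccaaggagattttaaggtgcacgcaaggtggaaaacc

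The motifs were searched on both strands as TTCNNNGAA (STAT), TGANTCA (AP-1) and, for NF-κB, GGGA and TTCC with any 2 bases between them, and no stretch was counted for more than 1 factor in these 4 promoters. Of 27305 promoters in the table, 6.78% held the STAT motif, 1.42% the NF-κB motif and 6.6% the AP-1 motif. Of the 331 risen genes 268 had a promoter in the table, 11 of the 15 leading rises among them. Over these 268 genes the shares were 8.96%, 4.85% and 4.48%, and over 259 fallen genes 3.86%, 1.54% and 4.25%. Among the 15382 measured genes with a promoter they were 6.03%, 1.39% and 5.03%. A match describes letters in this window and is no evidence of binding, and these shares were not tested.

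Around IL6 and SOCS3, the IL6 family and its signaling chain moved at a few points. Of the IL6 family and its receptors, 3 of 13 measured genes rose and 1 fell. OSMR, the receptor of oncostatin M, had 7637, 7379 and 7269 units on the TAM arrays, against 5310.1, 5228 and 5255 units on the EtOH arrays (log2 0.50, adjusted p = 2.10e-04). IL6R, the ligand-binding IL6 receptor, had 288, 238 and 233 units on the TAM arrays, against 402, 405 and 370.1 units on the EtOH arrays (log2 -0.64, adjusted p = 0.00864). So OSMR rose and IL6R fell with no overlap between groups, while the shared signaling subunit IL6ST had 9750.0, 8033 and 9436 units on the TAM arrays, against 8267, 8572 and 8223 units on the EtOH arrays and did not pass (log2 0.11, adjusted p = 0.662). LIF, another ligand of the family, had 791, 1169 and 1128 units on the TAM arrays, against 596, 707 and 693 units on the EtOH arrays (log2 0.61, adjusted p = 0.0424, not passed without TAM replicate 2 or 3 or EtOH replicate 1, 2 or 3, up to 0.196), and 0.79 (adjusted p = 0.00674) without TAM replicate 1.

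Among inhibitors of JAK-STAT signaling, 2 of 16 measured genes rose and 0 fell. Beside SOCS3 the other rise was PTPN2, a tyrosine phosphatase that acts on JAKs and STATs, with 3758, 3635 and 3833 units on the TAM arrays, against 2659, 2195 and 2572 units on the EtOH arrays (log2 0.60, adjusted p = 0.00123). SOCS1 had 70.8, 71.5 and 66.3 units on the TAM arrays, against 65.8, 83.8 and 78.2 units on the EtOH arrays and CISH had 337, 324 and 335 units on the TAM arrays, against 212, 290.4 and 339 units on the EtOH arrays, and neither passed (log2 -0.12, adjusted p = 0.887 and log2 0.27, adjusted p = 0.462). Of the JAK and STAT genes themselves, 1 of 9 measured genes rose and 0 fell, and that gene was JAK2, with 259, 265 and 274 units on the TAM arrays, against 123, 163 and 119 units on the EtOH arrays (log2 0.99, adjusted p = 0.0355). It was not passed without TAM replicate 1, 2 or 3 or EtOH replicate 1 or 3, up to 0.137. STAT3 had 5626, 5974 and 5128 units on the TAM arrays, against 4091, 4061 and 3914 units on the EtOH arrays. The groups did not overlap, as for 19.9% of all genes, but the log2 difference of 0.47 ± 0.13 missed the threshold (adjusted p = 0.093).

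Acute-phase genes are raised in liver by IL6 through STAT3 and C/EBP factors. Of this list 4 of 19 measured genes rose and 0 fell. CFB, complement factor B, had 1099, 1185 and 1231 units on the TAM arrays, against 324, 490.3 and 383 units on the EtOH arrays, a 2.98-fold difference (log2 1.57, adjusted p = 3.57e-06). CEBPD, a C/EBP factor that STAT3 induces, had 6792, 7625 and 7037 units on the TAM arrays, against 4603, 4362 and 4387 units on the EtOH arrays (log2 0.68, adjusted p = 2.10e-05), and every TAM array of both genes was above every EtOH array. CEBPB also rose, by log2 0.27 (adjusted p = 0.0289, not passed without any 1 of the 6 arrays, up to 0.116, nor with quantile normalization, 0.227). SERPINA3, the antichymotrypsin, had 3123, 3309 and 3378 units on the TAM arrays, against 2654, 2337 and 2897 units on the EtOH arrays (log2 0.32, adjusted p = 0.169), complement C3 had 7088, 8029.6 and 7056 units on the TAM arrays, against 6539.8, 6802 and 6869 units on the EtOH arrays (log2 0.13, adjusted p = 0.579), and neither passed.

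An NF-κB subunit, its inhibitors and a kinase upstream of it rose. Of the NF-κB list 4 of 22 measured genes rose and 0 fell, with a median of 0.29. TNFAIP3, the ubiquitin-editing inhibitor A20, had 3572, 4618 and 4604 units on the TAM arrays, against 2164, 2263 and 2373 units on the EtOH arrays, a 1.87-fold difference (log2 0.90, adjusted p = 3.45e-05). MAP3K8, a kinase that links NF-κB to ERK, had 515, 564 and 782 units on the TAM arrays, against 273, 289 and 258 units on the EtOH arrays, a 2.23-fold difference (log2 1.16, adjusted p = 9.48e-05). NFKB1, the p50 subunit, had 1885, 2263 and 1925 units on the TAM arrays, against 1355, 1223 and 1415 units on the EtOH arrays (log2 0.60, adjusted p = 0.00627), so that all 3 genes had TAM arrays above the EtOH arrays. NFKBIA, the inhibitor IκBα, rose by log2 0.43 (adjusted p = 0.0356, not passed without TAM replicate 2 or 3 or EtOH replicate 1 or 2, up to 0.175). RELA had a log2 difference of 0.18 and RELB of 0.60, and neither passed (adjusted p = 0.465 and 0.117). CYLD, a deubiquitinase that restrains NF-κB, had 541, 466 and 543 units on the TAM arrays, against 458, 427 and 445 units on the EtOH arrays (log2 0.22, adjusted p = 0.498).

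Beside CCL2, chemokines that attract neutrophils and T cells rose. Of the chemokine list 4 of 24 measured genes rose and 0 fell, with a median of 0.06. CXCL2, a neutrophil attractant, had 4530.4, 6935 and 6960.0 units on the TAM arrays, against 3172, 3179.8 and 3209 units on the EtOH arrays (log2 0.92, adjusted p = 0.00579), and without TAM replicate 1 the log2 difference was 1.12 (adjusted p = 8.89e-04). CCL20, the ligand of CCR6, had 14169.6, 18522 and 15454 units on the TAM arrays, against 8487, 8996 and 9452 units on the EtOH arrays (log2 0.83, adjusted p = 0.0027). CXCL16, which exists as a transmembrane and a shed form, had 970.0, 983 and 934 units on the TAM arrays, against 542, 563 and 517 units on the EtOH arrays (log2 0.83, adjusted p = 0.00123). No TAM array of these 3 genes overlapped an EtOH array, which held for 19.9% of all genes.

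The other neutrophil attractants did not pass with all arrays. CXCL1 had 4739, 9559 and 10526 units on the TAM arrays, against 5995, 6855 and 6824 units on the EtOH arrays, so that 2 TAM arrays were above all EtOH arrays and replicate 1 was below all of them. Its log2 difference was 0.26 ± 0.23 (adjusted p = 0.746), and 0.62 without replicate 1 (adjusted p = 0.0668). CXCL8 showed the same split, with 3541, 7834 and 9155 units on the TAM arrays, against 5503, 6599.6 and 5736 units on the EtOH arrays. Its log2 difference was 0.10 ± 0.24 (adjusted p = 0.937), and 0.51 without replicate 1 (adjusted p = 0.0993). CXCL3 had 684, 1384 and 1729.7 units on the TAM arrays, against 567, 734 and 737 units on the EtOH arrays, a log2 difference of 0.81 ± 0.25 (adjusted p = 0.124) that passed without replicate 1 (1.20, adjusted p = 0.00146). Without replicate 1 CSF3, the granulocyte colony-stimulating factor, also passed. So did NFKBIZ, a nuclear IκB protein that co-activates IL6, as measured by its brightest probe set. With all arrays CSF3 had 0.76 (adjusted p = 0.0502), against 1.00 (adjusted p = 0.00584) without replicate 1. NFKBIZ had 0.46 (adjusted p = 0.152), against 0.64 (adjusted p = 0.0293), while its other, dimmer probe set rose with all arrays (log2 1.01, adjusted p = 0.00132). TAM replicate 1 was singled out as low for CXCL1, CXCL3, CXCL8 and CSF3, so their differences without it had to be higher. What set this array apart was not tested.

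**Figure D3:**
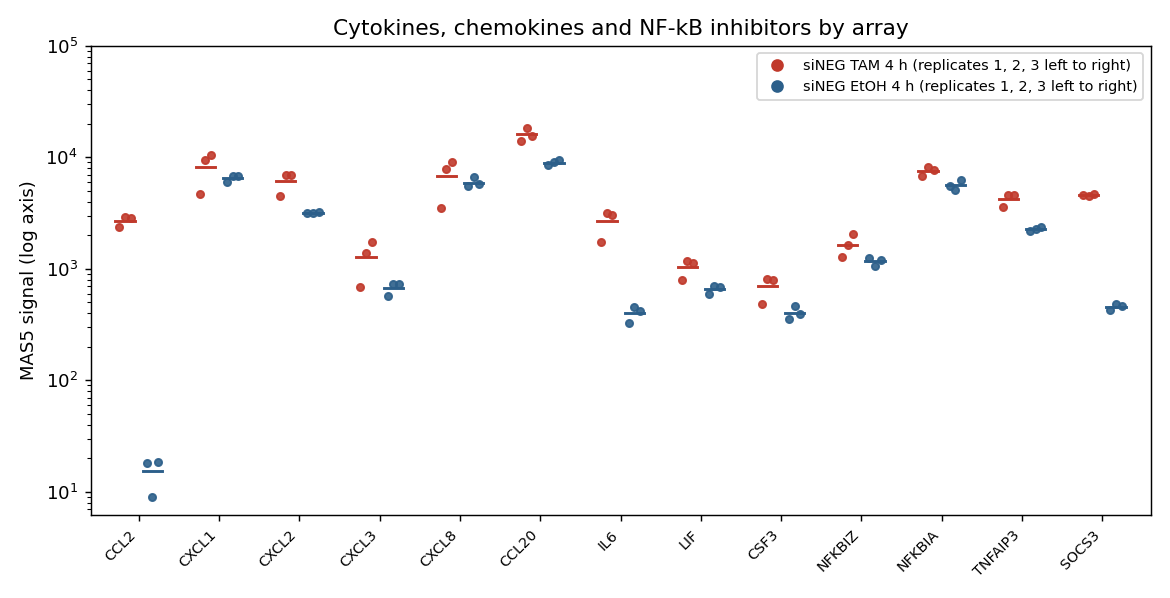
MAS5 signal (log axis) of chemokines, cytokines and inhibitors of NF-κB or STAT3 signaling on each siNEG array at 4 h, with TAM in red left of EtOH in blue and replicates 1, 2 and 3 in order from the left. TAM replicate 1 is the lowest TAM point for CXCL1, CXCL2, CXCL3, CXCL8, IL6, LIF and CSF3 (684, 1384 and 1729.7 units for CXCL3), while the TAM points of SOCS3 lie close together (4565, 4524 and 4739.9 units).

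Receptors of IL1 rose while its ligands did not pass. Of the IL1 family and its receptors, 3 of 16 measured genes rose and 1 fell, with a median of 0.49. IL1RAP, the accessory chain that IL1 and IL33 receptors share, had 3585, 3481 and 3475 units on the TAM arrays, against 2092, 2276 and 2034 units on the EtOH arrays (log2 0.72, adjusted p = 0.00143). IL1R1, the signaling IL1 receptor, had 1487, 1445 and 1547 units on the TAM arrays, against 1034, 1072 and 945 units on the EtOH arrays (log2 0.56, adjusted p = 0.00159), and the groups of both genes did not overlap. The decoy receptor IL1R2 rose by log2 0.79 (adjusted p = 0.0199, not passed without TAM replicate 2 or 3 or EtOH replicate 1 or 2, up to 0.0876). IL1A had 4691, 5457 and 5209.6 units on the TAM arrays, against 4429, 4534 and 4533 units on the EtOH arrays (log2 0.18, adjusted p = 0.357), IL1B had 6811, 8543 and 8002 units on the TAM arrays, against 6851, 6881 and 7078 units on the EtOH arrays (log2 0.16, adjusted p = 0.687), and IL18, another cytokine of the family, fell by 0.42 on the log2 scale (adjusted p = 0.041, not passed without TAM replicate 1 or 2 or EtOH replicate 1, 2 or 3, up to 0.196, nor with equal array medians, 0.173).

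In the IL20 subfamily 3 of 11 measured genes rose and 1 fell. IL19, which lies beside IL20 and IL24, rose at low signals (log2 1.34, adjusted p = 0.0239, not passed without TAM replicate 2 or 3 or EtOH replicate 2, up to 0.135, nor with the prior variance as a trend of signal, 0.103). IL20RB, a receptor chain for these cytokines, had 1019.6, 1034 and 909 units on the TAM arrays, against 1619, 1442 and 1576 units on the EtOH arrays (log2 -0.65, adjusted p = 1.38e-04). Thus ligands and a receptor chain moved in opposite directions, with no overlap in IL20RB. Of colony-stimulating factors and epithelial cytokines, 3 of 17 measured genes rose and 2 fell. VEGFA, the angiogenic factor, had 7304, 7528 and 7446 units on the TAM arrays, against 4140.0, 4284 and 4012 units on the EtOH arrays (log2 0.84, adjusted p = 1.94e-06). PDGFA, a mitogen for fibroblasts, had 289, 342 and 207 units on the TAM arrays, against 529, 509 and 568 units on the EtOH arrays (log2 -0.97, adjusted p = 0.00104). KITLG, the stem cell factor, had 533, 515 and 517 units on the TAM arrays, against 856, 812 and 772 units on the EtOH arrays (log2 -0.64, adjusted p = 0.00111). VEGFA was higher, and PDGFA and KITLG lower, on every TAM array than on any EtOH array. IL32 had 22.8, 33.7 and 61.0 units on the TAM arrays, against 5.63, 5.08 and 4.09 units on the EtOH arrays (log2 2.88, adjusted p = 0.019, not passed without TAM replicate 2 or 3 or EtOH replicate 1, 2 or 3, up to 0.0904), and its log2 difference was 1.34 after 16 units were added. The epithelial cytokine TSLP rose by log2 0.72 (adjusted p = 0.0168, not passed without TAM replicate 1, 2 or 3 or EtOH replicate 2 or 3, up to 0.0969).

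Of TNF ligands, receptors and related genes, 2 of 24 measured genes rose and 0 fell, beside 1.67% and 1.58% of all genes. TNFSF10, the death ligand TRAIL, had 139.6, 107 and 177 units on the TAM arrays, against 60.5, 80.5 and 71.6 units on the EtOH arrays (log2 0.98, adjusted p = 0.00542), and TNFAIP8 rose by log2 0.33 (adjusted p = 0.018, not passed without TAM replicate 3 or EtOH replicate 1, up to 0.0899). TNF itself lay at 24.6, 34.6 and 35.3 units on the TAM arrays, against 27.2, 26.7 and 13.9 units on the EtOH arrays (log2 0.52, adjusted p = 0.672).

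Of the proteins that form AP-1 dimers, FOS, FOSL2, ATF3, BATF3 and BACH1 rose. Of AP-1 and ATF factors, 5 of 19 measured genes rose and 0 fell, with a median of 0.28. FOS had 2114, 2141 and 2104 units on the TAM arrays, against 912, 855 and 997 units on the EtOH arrays, a 2.3-fold difference (log2 1.20 ± 0.11, adjusted p = 5.37e-06). ATF3, a stress-induced repressor and activator, had 416, 395 and 414 units on the TAM arrays, against 149, 152 and 174 units on the EtOH arrays, a 2.58-fold difference (log2 1.37 ± 0.11, adjusted p = 2.14e-06). BATF3 had 1205, 759.6 and 839 units on the TAM arrays, against 342, 369 and 342 units on the EtOH arrays (log2 1.39 ± 0.18, adjusted p = 1.67e-04). In all 3 genes every TAM array was at least 2 times the highest EtOH array. FOSL2 rose by log2 0.58 (adjusted p = 0.00133) and BACH1, a heme-responsive repressor, by log2 0.54 (adjusted p = 0.00888).

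No JUN gene passed. JUN had 2748, 4078 and 2939.9 units on the TAM arrays, against 4273, 4123 and 3906 units on the EtOH arrays (log2 -0.35, adjusted p = 0.504), so that its groups overlapped. JUNB, which IL6 induces in many cells, had 731, 712 and 814 units on the TAM arrays, against 384, 404 and 428 units on the EtOH arrays, with no overlap, and did not pass (log2 0.89, adjusted p = 0.108). JUND had 1619, 1791 and 1671 units on the TAM arrays, against 2032, 2164 and 2375 units on the EtOH arrays (log2 -0.37, adjusted p = 0.0531).

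Immediate early genes, which serum and growth factors induce within minutes, went both ways at 4 h. Of this list 4 of 23 measured genes rose and 3 fell. ZFP36, the mRNA decay factor tristetraprolin, had 2136, 2179 and 2030.0 units on the TAM arrays, against 1023, 1092 and 1145 units on the EtOH arrays (log2 0.96, adjusted p = 5.85e-06). SRF, the serum response factor, had 1077, 1108 and 887 units on the TAM arrays, against 453, 666 and 659 units on the EtOH arrays (log2 0.80, adjusted p = 0.00764). IER5 rose by log2 0.50 (adjusted p = 1.03e-04) and BTG1, an antiproliferative factor, by log2 0.47 (adjusted p = 0.00678). EGR1, a zinc-finger factor downstream of ERK, fell, with 1578, 1464 and 1762 units on the TAM arrays, against 2718, 2688 and 2656 units on the EtOH arrays (log2 -0.75 ± 0.08, adjusted p = 3.11e-05). TSC22D1 fell by 0.39 on the log2 scale (adjusted p = 0.00122), and KLF4, a Krüppel-like factor, by 0.73 (adjusted p = 0.00112). MYC, the proliferation factor, had 12064, 10491 and 9891 units on the TAM arrays, against 11612, 11791 and 11324 units on the EtOH arrays (log2 -0.10, adjusted p = 0.738).

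Feedback genes of the ERK pathway include phosphatases and Sprouty proteins that restrain it. Of this list 1 of 25 measured genes rose and 3 fell, beside 1.67% and 1.58% of all genes. DUSP7, a phosphatase of ERK, had 1547, 1343 and 1562 units on the TAM arrays, against 2454, 2520.1 and 2309 units on the EtOH arrays (log2 -0.71, adjusted p = 2.51e-04). SPRY2, a Sprouty inhibitor of receptor tyrosine kinases, had 871, 749.7 and 869 units on the TAM arrays, against 1347, 1431 and 1187 units on the EtOH arrays (log2 -0.67, adjusted p = 0.00259). DUSP10, a phosphatase of p38 and JNK kinases, had 231, 186 and 215 units on the TAM arrays, against 302, 352 and 327 units on the EtOH arrays (log2 -0.64, adjusted p = 0.00134). All 3 had TAM arrays below the EtOH arrays. SPRED1, another inhibitor, rose by log2 0.57 (adjusted p = 0.0364, not passed without TAM replicate 1 or 3 or EtOH replicate 1, 2 or 3, up to 0.159). DUSP6, a phosphatase of ERK, had 3604, 3216 and 3693 units on the TAM arrays, against 3597, 3903 and 4213 units on the EtOH arrays (log2 -0.16, adjusted p = 0.68), and DUSP4 and ETV5 did not pass (log2 -0.25, adjusted p = 0.123 and log2 -0.17, adjusted p = 0.393). Of EGF ligands and ERBB receptors, 0 of 15 measured genes rose and 1 fell. EGFR, the EGF receptor, had 4405, 4007 and 4652 units on the TAM arrays, against 5984, 5947 and 5744 units on the EtOH arrays (log2 -0.44, adjusted p = 0.00516). That fall was not called with equal array medians (adjusted p = 0.103).

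Among Src family kinases and their regulators, 3 of 23 measured genes rose and 0 fell. LYN, a Src family kinase, had 2219, 2294 and 2057 units on the TAM arrays, against 1362, 1596 and 1449.6 units on the EtOH arrays (log2 0.58, adjusted p = 0.00134). CSK, the kinase that inactivates the family, had 1536, 1509 and 1586 units on the TAM arrays, against 1518, 1781 and 1606 units on the EtOH arrays (log2 -0.08, adjusted p = 0.844). The ubiquitin ligases CBLC and CBLB, which remove active receptor kinases, rose by log2 0.64 (adjusted p = 0.0208, not passed without TAM replicate 2 or 3 or EtOH replicate 2 or 3, up to 0.112) and log2 0.37 (adjusted p = 0.0423, not passed without any 1 of the 6 arrays, up to 0.165).

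Of regulators of G proteins, 3 of 25 measured genes rose and 3 fell. RGS2, which turns off the Gq class of G proteins, had 16065, 16482 and 15195 units on the TAM arrays, against 4185, 3834 and 3986 units on the EtOH arrays, a 3.98-fold difference (log2 1.99 ± 0.09, adjusted p = 2.83e-09). Its arrays were tight within each group. RHOV, a small GTPase, had 477, 515 and 451 units on the TAM arrays, against 280.3, 240.2 and 289 units on the EtOH arrays (log2 0.84, adjusted p = 0.00104). RHOB rose (log2 0.62, adjusted p = 0.0146, not passed without TAM replicate 1 or EtOH replicate 2 or 3, up to 0.0835). The falls were RHOU, another small GTPase (log2 -0.72, adjusted p = 0.0223, not passed without TAM replicate 1 or 3 or EtOH replicate 1 or 2, up to 0.114, nor with equal array medians, 0.0638, nor with quantile normalization, 0.0524), ARHGAP18, a GTPase-activating protein (log2 -0.51, adjusted p = 0.0116, not passed without TAM replicate 2 or EtOH replicate 1 or 2, up to 0.0648, nor with equal array medians, 0.141), and the adenosine receptor ADORA2B (log2 -0.38, adjusted p = 0.00912, not passed with equal array medians, 0.24).

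Interferon-stimulated genes, many of them antiviral, gave 7 rises and no fall among 26 measured genes, with a median of 0.22. IFIT3, an antiviral protein, had 1251, 1074 and 1234 units on the TAM arrays, against 623, 579.8 and 547 units on the EtOH arrays (log2 1.02, adjusted p = 0.00154). IFIT2, its relative, had 179.5, 192 and 196 units on the TAM arrays, against 97.6, 108 and 89.0 units on the EtOH arrays (log2 0.95, adjusted p = 5.22e-05). IRF1, a transcription factor of the interferon response, had 537, 691 and 669.6 units on the TAM arrays, against 415, 375 and 358 units on the EtOH arrays (log2 0.72, adjusted p = 0.00157), and TAM arrays were above EtOH arrays in all 3. IRF9 rose by log2 0.76 (adjusted p = 8.39e-04) and the GTPase GBP1 by log2 0.75 (adjusted p = 0.00641). RIGI and IFIH1, sensors of viral RNA, rose by log2 0.65 (adjusted p = 0.0125, not passed without TAM replicate 2 or EtOH replicate 1, up to 0.0724) and log2 0.50 (adjusted p = 0.00818, not passed without EtOH replicate 3, 0.0551). ISG15 had 217, 205 and 234 units on the TAM arrays, against 245, 179 and 236 units on the EtOH arrays (log2 0.00, adjusted p = 0.997), OASL did not pass (log2 -0.06, adjusted p = 0.937), and MX1 lay at 22.0, 11.4 and 27.5 units on the TAM arrays, against 25.6, 19.8 and 15.9 units on the EtOH arrays (log2 -0.07, adjusted p = 0.987).

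Glucocorticoid-responsive genes went both ways in a medium with hydrocortisone: 4 of 19 measured genes rose and 3 fell. CRISPLD2, a secreted glucocorticoid target, had 278, 262 and 195 units on the TAM arrays, against 88.1, 94.8 and 80.1 units on the EtOH arrays (log2 1.47, adjusted p = 1.67e-04), and the kinase SGK1 had 2880.0, 2937 and 2367 units on the TAM arrays, against 1819.9, 1743 and 1609 units on the EtOH arrays (log2 0.66, adjusted p = 4.86e-04). ZBTB16, a zinc-finger repressor, had 193, 201 and 179 units on the TAM arrays, against 304, 357 and 372 units on the EtOH arrays (log2 -0.85, adjusted p = 2.02e-04). TXNIP, which binds thioredoxin and limits glucose uptake, had 927, 804 and 769 units on the TAM arrays, against 1446, 1279 and 1438 units on the EtOH arrays (log2 -0.74, adjusted p = 6.83e-05). The groups did not overlap in any of these 4 genes, nor in 19.9% of all genes. ARRDC3, an arrestin-domain protein of receptor trafficking, rose by log2 0.51 (adjusted p = 0.045, not passed without TAM replicate 1 or 3 or EtOH replicate 1, 2 or 3, up to 0.179), and TSC22D3, the glucocorticoid-induced leucine zipper protein, fell by 0.61 on the log2 scale (adjusted p = 0.0142, not passed without TAM replicate 3 or EtOH replicate 3, up to 0.0832, nor with equal array medians, 0.0598). FKBP5, the co-chaperone used as a readout of the receptor, had 13410.2, 13524 and 13424 units on the TAM arrays, against 14440.2, 14113 and 14665 units on the EtOH arrays (log2 -0.10, adjusted p = 0.607).

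Of genes of glycolysis and the hypoxia response, 5 of 26 measured genes rose and 1 fell. NDRG1, a hypoxia-responsive growth regulator, had 6079, 6495 and 5554 units on the TAM arrays, against 2719, 3022 and 2687 units on the EtOH arrays (log2 1.10, adjusted p = 6.59e-04). PFKFB3, which raises the main activator of glycolysis, had 2638, 2735 and 2679 units on the TAM arrays, against 1589.6, 1721 and 1580.3 units on the EtOH arrays (log2 0.72, adjusted p = 7.03e-05). HIF1A, the hypoxia factor, had 20053, 21579 and 20718 units on the TAM arrays, against 15793, 14632 and 15942 units on the EtOH arrays (log2 0.43, adjusted p = 0.00581). ADM, the vasodilator adrenomedullin, rose by log2 0.72 (adjusted p = 0.0199, not passed without TAM replicate 2 or 3 or EtOH replicate 1, 2 or 3, up to 0.0854), and ANKRD37 by log2 0.65 (adjusted p = 0.0255, not passed without any 1 of the 6 arrays, up to 0.111). The glucose transporter SLC2A1 fell by 0.33 on the log2 scale (adjusted p = 0.0277, not passed without TAM replicate 2 or 3 or EtOH replicate 1, 2 or 3, up to 0.0964, nor with equal array medians, 0.279). The glycolytic enzymes HK2 and LDHA did not pass (log2 -0.02, adjusted p = 0.989 and log2 0.13, adjusted p = 0.823). In prostaglandin synthesis, where 1 of 16 measured genes rose and 0 fell, the gene was PTGS2, the inducible cyclooxygenase, with 1054, 1229 and 1470.0 units on the TAM arrays, against 351, 493 and 388 units on the EtOH arrays, a 3.05-fold difference (log2 1.61 ± 0.18, adjusted p = 3.32e-05).

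**Figure D4:**
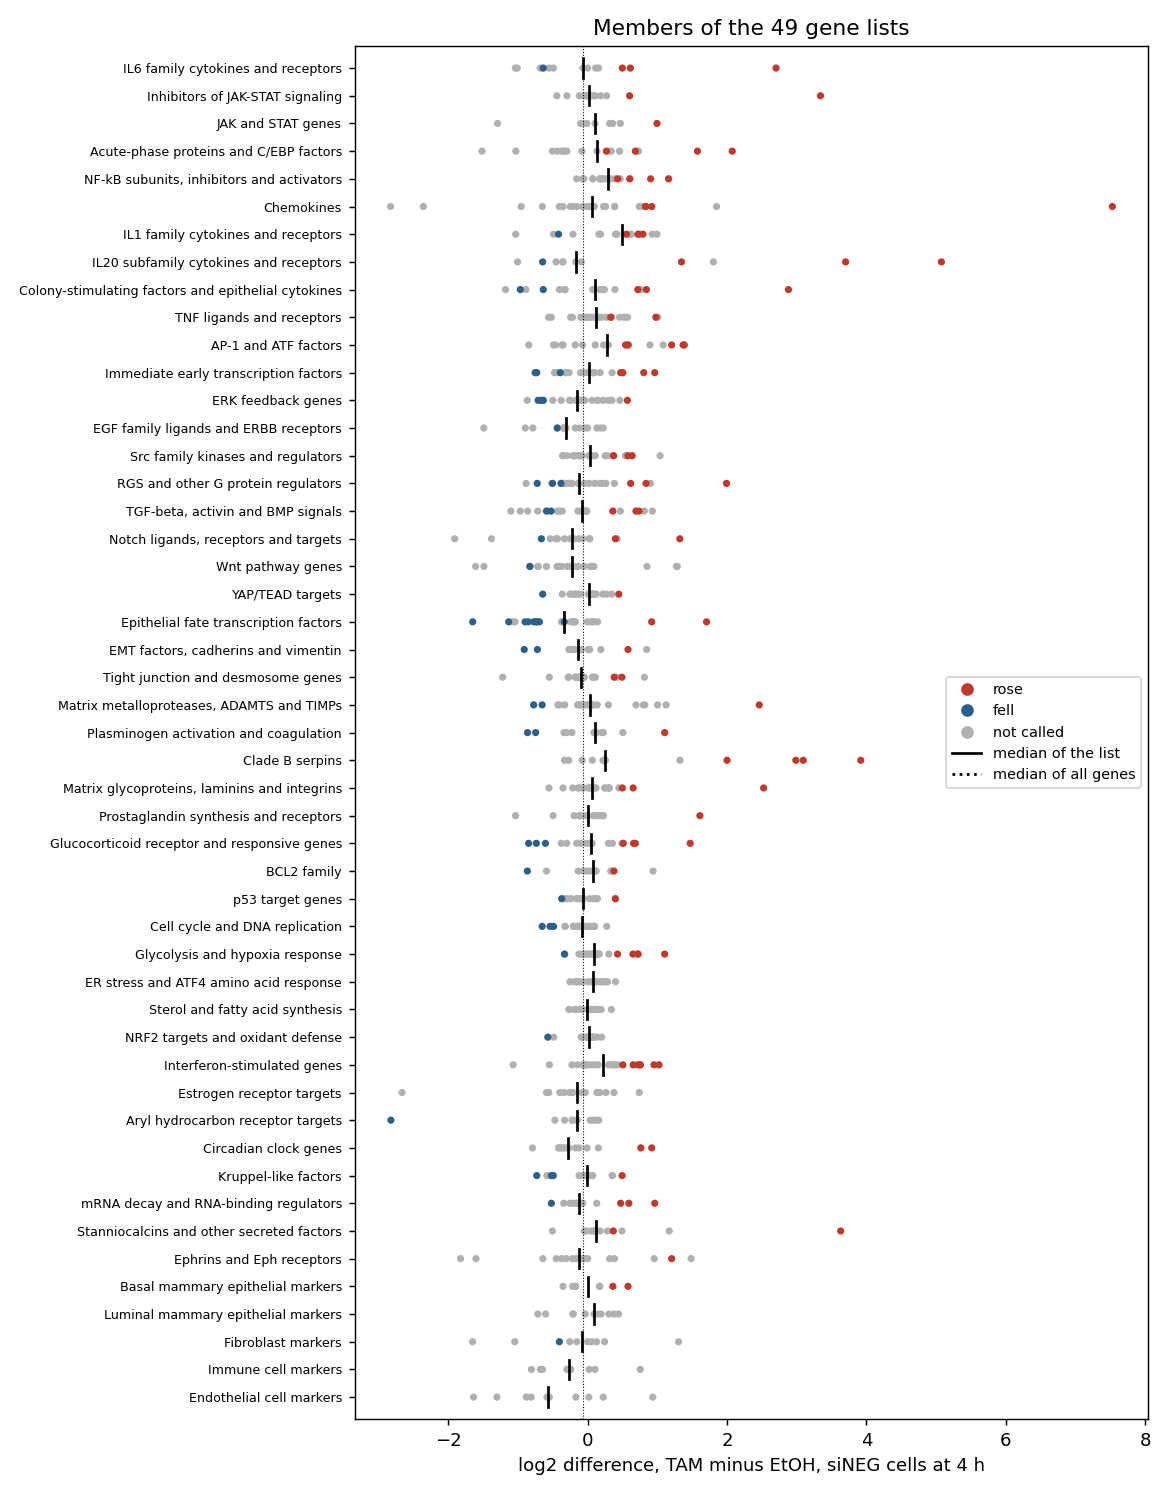
Log2 difference between TAM and EtOH cells (horizontal axis) for the measured members of 49 gene lists (rows), with called rises in red, called falls in blue, other genes in grey, a bar at each list's median and a dotted line at the median of all genes (-0.06). Chemokines and the IL20 subfamily hold a few points far to the right of a median near 0 (CCL2 at 7.53, IL24 at 5.08), whereas 9 of the 11 called epithelial fate factors lie to the left.

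A group of 9 transcription factors that shape epithelial fate fell. Of the list of such factors, 2 of 26 measured genes rose and 9 fell, with a median of -0.35, and 4 of the falls were called with equal array medians. SOX9, a factor of progenitor cells, had 265, 361 and 346 units on the TAM arrays, against 1022, 962 and 1045 units on the EtOH arrays, a 3.14-fold lower signal (log2 -1.65 ± 0.17, adjusted p = 1.38e-05), and its other probe set fell too. OVOL2, a zinc-finger factor that keeps cells epithelial, had 307, 306 and 319.7 units on the TAM arrays, against 671, 665 and 712 units on the EtOH arrays (log2 -1.13 ± 0.15, adjusted p = 2.72e-04). IRX4, an Iroquois homeobox factor, had 547, 529 and 529 units on the TAM arrays, against 1059, 994 and 943 units on the EtOH arrays (log2 -0.90, adjusted p = 4.25e-05). KLF4, a factor of epithelial differentiation, had 475, 484 and 563 units on the TAM arrays, against 849.5, 853 and 817 units on the EtOH arrays (log2 -0.73, adjusted p = 0.00112). TAM arrays were below EtOH arrays in all 4, which the rule of choice required of SOX9 and OVOL2 as leading falls.

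The other falls of the list were less firm. They were the Iroquois factor IRX3 (log2 -0.86, adjusted p = 0.00844, not passed without EtOH replicate 1, 0.0511, nor with equal array medians, 0.059), the epithelial ETS factor EHF (log2 -0.78, adjusted p = 0.0216, not passed without TAM replicate 1 or 2 or EtOH replicate 1 or 3, up to 0.108, nor with equal array medians, 0.104) and the forkhead factor FOXQ1 (log2 -0.69, adjusted p = 0.0106, not passed without TAM replicate 2, 0.0674, nor with equal array medians, 0.057). OVOL1, a relative of OVOL2, had log2 -0.74, adjusted p = 0.0499 (not passed without any 1 of the 6 arrays, up to 0.164, nor with equal array medians, 0.107, nor with quantile normalization, 0.0542), and SOX4 had log2 -0.34, adjusted p = 0.0163 (not passed without TAM replicate 2 or EtOH replicate 1, up to 0.0844, nor with equal array medians, 0.377). ELF3, an epithelial ETS factor that NF-κB can induce, rose, with 269.7, 380.2 and 352 units on the TAM arrays, against 109, 111 and 85.6 units on the EtOH arrays, a 3.26-fold difference (log2 1.71, adjusted p = 3.03e-04). BHLHE40, a repressor of the clock and of differentiation, had 5073, 4863 and 4451 units on the TAM arrays, against 2891, 2658 and 2118 units on the EtOH arrays (log2 0.92, adjusted p = 0.00124). GATA3 and KLF5 did not pass (log2 -0.21, adjusted p = 0.423 and log2 0.07, adjusted p = 0.933).

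More transcription regulators were among the 15 leading falls, which were chosen by the same rule as the rises. In the fit to the 6 arrays alone only 4 of the 15 passed, SOX9, OVOL2, IRX5 and TFCP2L1. IRX5, an Iroquois homeobox factor, had 284, 306 and 281 units on the TAM arrays, against 703, 700.4 and 696 units on the EtOH arrays (log2 -1.27 ± 0.21, adjusted p = 0.00209). TFCP2L1, a CP2 family factor of epithelia and stem cells, had 1028, 1025 and 1111 units on the TAM arrays, against 2239, 2179.9 and 2292 units on the EtOH arrays (log2 -1.09 ± 0.07, adjusted p = 7.14e-08). HMGA2, an architectural chromatin protein of embryonic and tumor cells, had 1476, 1302 and 1502 units on the TAM arrays, against 2895, 3036 and 2763 units on the EtOH arrays (log2 -1.02 ± 0.07, adjusted p = 3.97e-07). In these 3 genes the highest TAM array was far below the lowest EtOH array, where the rule of choice required only that they not overlap. Of 9 probe sets of HMGA2 only 2 fell, while all 3 of TFCP2L1 did and IRX5 had 1. ZBED2, a zinc-finger protein of keratinocytes, had 189, 177 and 179 units on the TAM arrays, against 419, 569 and 506 units on the EtOH arrays (log2 -1.45 ± 0.10, adjusted p = 2.21e-07). DLX1, a distal-less homeobox factor, had 195, 146 and 142 units on the TAM arrays, against 379.9, 389 and 312 units on the EtOH arrays (log2 -1.17 ± 0.17, adjusted p = 5.29e-04). EOMES, a T-box factor, had 128, 130.2 and 94.1 units on the TAM arrays, against 226, 289 and 298 units on the EtOH arrays (log2 -1.21 ± 0.19, adjusted p = 0.0014).

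The other leading falls included a channel subunit, a cornified envelope precursor and a cadherin. SCNN1G, the gamma subunit of the epithelial sodium channel, had 411, 527 and 404 units on the TAM arrays, against 1269, 1067 and 1243 units on the EtOH arrays, a 2.68-fold lower signal (log2 -1.42 ± 0.14, adjusted p = 9.87e-06). SPRR1B, a precursor of the cornified envelope of squamous cells, had 104, 136 and 143 units on the TAM arrays, against 341, 279 and 379 units on the EtOH arrays (log2 -1.39 ± 0.18, adjusted p = 1.70e-04). FAT2, an atypical cadherin, had 354, 199 and 302 units on the TAM arrays, against 714, 634 and 636 units on the EtOH arrays (log2 -1.25 ± 0.16, adjusted p = 1.67e-04). In each the highest TAM array was under the lowest EtOH array, as the rule of choice required. C1orf116 had 1553, 1400.3 and 1415 units on the TAM arrays, against 2972, 2779 and 3113 units on the EtOH arrays (log2 -1.02, adjusted p = 0.00361). CRACDL had 219, 182 and 208 units on the TAM arrays, against 421, 449 and 382 units on the EtOH arrays (log2 -1.04, adjusted p = 6.25e-05). SLC37A2, a sugar phosphate exchanger, had 88.7, 85.0 and 102 units on the TAM arrays, against 179.5, 237 and 154 units on the EtOH arrays (log2 -1.03, adjusted p = 0.00631). MMRN2, a matrix protein known from endothelium, had 75.0, 55.5 and 65.9 units on the TAM arrays, against 143, 143 and 110.3 units on the EtOH arrays (log2 -1.01, adjusted p = 0.00745). Both SLC37A2 and MMRN2 were dim.

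SNAI2 and TWIST1, factors of epithelial-mesenchymal transition, fell at 4 h. Of the list on this transition 1 of 14 measured genes rose and 2 fell. SNAI2, the repressor Slug, had 1855, 1779 and 1764 units on the TAM arrays, against 3186, 3659.6 and 3321 units on the EtOH arrays (log2 -0.91 ± 0.08, adjusted p = 2.77e-06). TWIST1 had 504, 433 and 508 units on the TAM arrays, against 797, 813 and 767 units on the EtOH arrays (log2 -0.72, adjusted p = 1.85e-04), both with TAM arrays below EtOH arrays. E-cadherin (CDH1) had 7621, 7649 and 7435 units on the TAM arrays, against 7599, 7635 and 7364 units on the EtOH arrays (log2 0.01, adjusted p = 0.99), and vimentin (VIM) had 15341, 17820.1 and 14175 units on the TAM arrays, against 15083, 14983 and 16207 units on the EtOH arrays (log2 0.03, adjusted p = 0.967). P-cadherin (CDH3), a basal cell cadherin, rose, with 9037, 9996 and 8528 units on the TAM arrays, against 6274, 6249 and 5909.8 units on the EtOH arrays (log2 0.58, adjusted p = 0.00141). Of tight junction and desmosome genes, 2 of 24 measured genes rose and 0 fell: CLDN1 (log2 0.49, adjusted p = 0.041, not passed without any 1 of the 6 arrays, up to 0.145, nor with quantile normalization, 0.088) and the desmocollin DSC3 (log2 0.38, adjusted p = 0.00867, not passed without EtOH replicate 2, 0.0514).

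Of matrix metalloproteases, ADAMTS proteases and TIMP inhibitors, 1 of 25 measured genes rose and 2 fell, beside 1.67% and 1.58% of all genes. MMP28, an epithelial metalloprotease, had 617, 624 and 660.1 units on the TAM arrays, against 1079.9, 928 and 988 units on the EtOH arrays (log2 -0.65, adjusted p = 3.05e-05). TIMP3, a matrix-bound inhibitor, had 687, 713 and 655 units on the TAM arrays, against 1326, 937 and 1298 units on the EtOH arrays (log2 -0.78, adjusted p = 0.00726). MMP9 had 73.9, 136 and 154 units on the TAM arrays, against 92.9, 181 and 118 units on the EtOH arrays (log2 -0.12, adjusted p = 0.923), with overlap. In plasminogen activation and coagulation 1 of 13 measured genes rose and 2 fell. PLAUR, the urokinase receptor, had 6060.2, 6718 and 6429 units on the TAM arrays, against 2838, 2989 and 3106 units on the EtOH arrays, a 2.15-fold difference (log2 1.10, adjusted p = 2.46e-04). THBD, the anticoagulant thrombomodulin, had 929, 817 and 827 units on the TAM arrays, against 1552, 1555 and 1566 units on the EtOH arrays (log2 -0.86, adjusted p = 3.76e-06). PLAT, the tissue plasminogen activator, had 1151, 1095 and 1414 units on the TAM arrays, against 2014, 2155 and 1945 units on the EtOH arrays (log2 -0.75, adjusted p = 0.00434).

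Of matrix glycoproteins, laminins and integrins, 3 of 24 measured genes rose and 0 fell. Beside TNC these were the collagen-binding integrin ITGA2, with 9184, 8023 and 9356 units on the TAM arrays, against 5952, 5335 and 5601 units on the EtOH arrays (log2 0.65, adjusted p = 0.00273), and the hyaluronan synthase HAS3 (log2 0.50, adjusted p = 0.0398, not passed without any 1 of the 6 arrays, up to 0.156). The other, dimmer probe set of HAS3 was lower in TAM cells and did not pass (log2 -1.20, adjusted p = 0.101). Fibronectin (FN1) did not pass (log2 0.03, adjusted p = 0.952). Of ephrins and Eph receptors, 1 of 16 measured genes rose and 0 fell, and EFNA1, the ligand of EPHA2, had 5873, 7526 and 6377 units on the TAM arrays, against 2563, 2908 and 3093 units on the EtOH arrays, a 2.3-fold difference (log2 1.20, adjusted p = 1.34e-05). EPHA2 had 2762, 3010.1 and 2708 units on the TAM arrays, against 2233, 2370.2 and 2209.9 units on the EtOH arrays (log2 0.31, adjusted p = 0.115).

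In TGF-beta, activin and BMP signaling 3 of 25 measured genes rose and 2 fell. SMAD3, the signal transducer, had 1189, 1440.4 and 1362 units on the TAM arrays, against 760.2, 812 and 819 units on the EtOH arrays (log2 0.74, adjusted p = 4.32e-04). BAMBI, a decoy receptor, had 1128, 1158 and 1119 units on the TAM arrays, against 722, 667 and 718 units on the EtOH arrays (log2 0.69, adjusted p = 3.76e-04). TGFBR2, the ligand-binding receptor, had 2715, 2614 and 2152 units on the TAM arrays, against 3498, 3729 and 3499 units on the EtOH arrays (log2 -0.53, adjusted p = 0.00195). INHBA, the activin subunit, had 629.6, 591 and 676 units on the TAM arrays, against 861, 1017 and 985 units on the EtOH arrays (log2 -0.59, adjusted p = 0.00104). The ligand TGFB2 rose by log2 0.36 (adjusted p = 0.047, not passed without TAM replicate 1, 2 or 3 or EtOH replicate 1 or 3, up to 0.192, nor with quantile normalization, 0.0548). Of the Notch list 2 of 16 measured genes rose and 1 fell. The ligand JAG2 had 485, 502 and 431 units on the TAM arrays, against 678, 823 and 752 units on the EtOH arrays (log2 -0.67, adjusted p = 0.00426), while the ligand DLL1 rose by log2 1.32 (adjusted p = 0.0212, not passed without TAM replicate 1, 2 or 3 or EtOH replicate 1 or 3, up to 0.103) and the ligand JAG1 by log2 0.40 (adjusted p = 0.0186, not passed without TAM replicate 1 or 3 or EtOH replicate 1 or 3, up to 0.0889). Of Wnt pathway genes 0 of 24 measured genes rose and 1 fell, which was DKK1, a secreted Wnt inhibitor, with 8950.1, 8613 and 8291 units on the TAM arrays, against 14779.6, 15593 and 15599.5 units on the EtOH arrays (log2 -0.83 ± 0.09, adjusted p = 2.44e-05). For targets of YAP and TEAD 1 of 19 measured genes rose and 1 fell, beside 1.67% and 1.58% of all genes. The called targets were TEAD4 (log2 0.45, adjusted p = 7.49e-04) and ANKRD1 (log2 -0.65, adjusted p = 0.0363, not passed without TAM replicate 2 or 3 or EtOH replicate 1, 2 or 3, up to 0.164, nor with equal array medians, 0.189, nor with quantile normalization, 0.0606), while CCN2 and CCN1 did not pass (log2 0.27, adjusted p = 0.166 and log2 0.08, adjusted p = 0.905).

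Cyclin D2 and E2F2 were among the cell cycle genes that fell. Of cell cycle and DNA replication genes 0 of 29 measured genes rose and 3 fell. Cyclin D2 (CCND2) had 3166, 3096 and 3086 units on the TAM arrays, against 4409.6, 4513 and 4218 units on the EtOH arrays (log2 -0.49, adjusted p = 0.00182), E2F2, a factor of S phase entry, had 195, 184 and 192 units on the TAM arrays, against 264, 285 and 282 units on the EtOH arrays (log2 -0.54, adjusted p = 0.00562), and the proliferation marker MKI67 had 2065, 1822 and 1912 units on the TAM arrays, against 1951, 1881 and 1872 units on the EtOH arrays (log2 0.02, adjusted p = 0.959). CDKN1C fell (log2 -0.65, adjusted p = 0.0205, not passed without TAM replicate 1 or 2 or EtOH replicate 2 or 3, up to 0.114, nor with equal array medians, 0.058). In the BCL2 family 1 of 14 measured genes rose and 1 fell, the BH3 proteins PMAIP1 (log2 0.38, adjusted p = 0.0215, not passed without TAM replicate 2 or EtOH replicate 1, 2 or 3, up to 0.117) and HRK (log2 -0.87, adjusted p = 0.044, not passed without any 1 of the 6 arrays, up to 0.206, nor with equal array medians, 0.0592, nor with quantile normalization, 0.0542). MCL1 and BCL2L1, survival members that STAT3 can raise, did not pass (log2 0.12, adjusted p = 0.655 and log2 -0.14, adjusted p = 0.784). Of p53 targets 1 of 17 measured genes rose and 1 fell, beside 1.67% and 1.58% of all genes. The called p53 targets were PLK2 (log2 0.40, adjusted p = 0.0141, not passed without TAM replicate 3 or EtOH replicate 3, up to 0.0593) and TP53I3 (log2 -0.37, adjusted p = 0.00542, not passed with equal array medians, 0.218).

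No gene passed among 21 genes of endoplasmic reticulum stress, 17 of sterol and fatty acid synthesis or 16 estrogen receptor targets, each on its brightest probe set. Another probe set of INSIG1, of the sterol list, rose (log2 0.56, adjusted p = 0.0086). The estrogen receptor target NRIP1 had 1684, 1611 and 1605 units on the TAM arrays, against 1580.5, 1307 and 1603 units on the EtOH arrays (log2 0.13, adjusted p = 0.741), and TFF1 lay at 29.0, 11.9 and 40.3 units on the TAM arrays, against 26.3, 52.5 and 32.2 units on the EtOH arrays (log2 -0.56, adjusted p = 0.793). Of 16 NRF2 targets GCLC, the catalytic subunit that starts glutathione synthesis, fell, with 3088, 2988 and 2924 units on the TAM arrays, against 4336, 4571 and 4482 units on the EtOH arrays (log2 -0.57, adjusted p = 3.10e-04), while NQO1 and HMOX1 did not pass (log2 0.08, adjusted p = 0.79 and log2 0.06, adjusted p = 0.949). Of 11 targets of the aryl hydrocarbon receptor, CYP1A1 fell at low signals, with 14.7, 4.31 and 33.4 units on the TAM arrays, against 91.1, 105 and 78.5 units on the EtOH arrays (log2 -2.82, adjusted p = 0.0337, not passed without TAM replicate 1 or 2 or EtOH replicate 1, 2 or 3, up to 0.172). Its log2 difference was -1.77 after 16 units were added, and CYP1B1 did not pass (log2 0.16, adjusted p = 0.524).

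Among the smaller lists, clock genes gave 2 rises in 15 measured genes, BHLHE40 and BMAL2. BMAL2, a partner of CLOCK, had 999, 886 and 1051 units on the TAM arrays, against 518, 642 and 573 units on the EtOH arrays (log2 0.76, adjusted p = 0.00195). Of Krüppel-like factors 1 of 14 measured genes rose and 3 fell: KLF11 rose (log2 0.49, adjusted p = 0.00516), KLF4 and KLF13 fell (log2 -0.52, adjusted p = 4.32e-04 for KLF13), and KLF12 fell (log2 -0.49, adjusted p = 0.0338, not passed without TAM replicate 2 or EtOH replicate 2 or 3, up to 0.175, nor with equal array medians, 0.106). Of mRNA decay and RNA-binding regulators 3 of 14 measured genes rose and 1 fell. RC3H1, the decay factor Roquin, had 3462, 3683 and 3371 units on the TAM arrays, against 2280.2, 2423 and 2281 units on the EtOH arrays (log2 0.59, adjusted p = 0.00111), and LIN28B, which blocks the let-7 miRNAs, lay at 24.9, 32.1 and 17.8 units on the TAM arrays, against 27.2, 50.1 and 16.3 units on the EtOH arrays (log2 -0.21, adjusted p = 0.918). TOB1, an antiproliferative factor, fell by 0.52 on the log2 scale (adjusted p = 0.0181, not passed without TAM replicate 2 or EtOH replicate 1 or 3, up to 0.103, nor with equal array medians, 0.0948). Of stanniocalcins and other secreted factors 2 of 15 measured genes rose and 0 fell, STC1 and the endothelin EDN1 (log2 0.37, adjusted p = 0.0294, not passed without any 1 of the 6 arrays, up to 0.111). Of 8 basal markers CDH3 and KRT14 rose (KRT14 with log2 0.36, adjusted p = 0.0325, not passed without TAM replicate 1 or 2 or EtOH replicate 1 or 2, up to 0.161), and of 10 fibroblast markers COL1A1 fell (log2 -0.41, adjusted p = 0.0148, not passed without TAM replicate 1 or 2 or EtOH replicate 2 or 3, up to 0.0854, nor with equal array medians, 0.115).

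The same treatment in siSTAT3 cells shows how the 4 h response differed when STAT3 was lowered. STAT3 signal averaged 425 ± 44.2 units in siSTAT3 TAM cells and 331 ± 29.3 units in siSTAT3 EtOH cells at 4 h, against 5576 ± 425 and 4022 ± 94.5 units in siNEG TAM and EtOH cells (SD, n = 3). The difference of the TAM effect, siSTAT3 minus siNEG, passed for 103 of 19777 genes (0.521%). Of the 189 genes that rose at the stricter limits in siNEG cells, 57 passed with a weaker rise in siSTAT3 cells and 0 with a stronger one, and of the 110 that fell, 25 passed with a weaker fall and 0 with a stronger one. Weaker here is any difference against the siNEG direction, a change of sign included. The same siNEG arrays decided the choice of these genes and enter the difference, so its direction is not independent of the choice.

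Serpins were among the leading genes whose effect differed. SERPINB1 had a TAM effect of 0.30 in siSTAT3 cells and 2.00 in siNEG cells (difference -1.70 ± 0.12, adjusted p = 3.10e-06). SERPINA1 had 0.07 in siSTAT3 cells and 2.07 in siNEG cells (difference -2.01 ± 0.19, adjusted p = 7.40e-05), and SERPINB13 had 0.49 in siSTAT3 cells and 2.99 in siNEG cells (difference -2.50 ± 0.26, adjusted p = 1.31e-04). In siSTAT3 cells these 3 effects were under 0.5 on the log2 scale. For the other leading serpins the difference did not pass: SERPINB3 had 1.35 in siSTAT3 cells and 3.09 in siNEG cells (difference -1.74 ± 0.46, adjusted p = 0.182), and SERPINB4 had 2.22 in siSTAT3 cells and 3.92 in siNEG cells (difference -1.70 ± 0.73, adjusted p = 0.587). STC1 had 0.97 in siSTAT3 cells and 3.63 in siNEG cells (difference -2.66 ± 0.37, adjusted p = 0.00191), and TNC had 0.55 in siSTAT3 cells and 2.52 in siNEG cells (difference -1.98 ± 0.20, adjusted p = 1.31e-04). Outside the leading genes, RGS2 had 0.02 in siSTAT3 cells and 1.99 in siNEG cells (difference -1.97 ± 0.13, adjusted p = 2.26e-06) and FOS had 0.06 in siSTAT3 cells and 1.20 in siNEG cells (difference -1.14 ± 0.16, adjusted p = 0.0017).

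For other genes the difference did not pass. SOCS3 had 1.62 in siSTAT3 cells and 3.34 in siNEG cells (difference -1.72 ± 0.48, adjusted p = 0.228), and IL6 had 1.07 in siSTAT3 cells and 2.70 in siNEG cells (difference -1.64 ± 0.38, adjusted p = 0.097). TNFAIP3 had 1.22 in siSTAT3 cells and 0.90 in siNEG cells (difference 0.32 ± 0.14, adjusted p = 0.598). A difference that did not pass does not show equal effects: the SE of the difference was 0.48 for SOCS3 and 1.72 for CCL2. Among the falls SOX9 had -0.23 in siSTAT3 cells and -1.65 in siNEG cells (difference 1.42 ± 0.23, adjusted p = 0.00866) and HMGA2 had -0.22 in siSTAT3 cells and -1.02 in siNEG cells (difference 0.81 ± 0.10, adjusted p = 0.00111).

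At 24 h the TAM effect was smaller than at 4 h for some genes and larger for others. The difference of the TAM effect, 24 h minus 4 h in siNEG cells, passed for 1105 of 19777 genes (5.59%). Of the 189 genes that rose at 4 h, 46 passed with a higher TAM effect at 24 h and 37 with a lower one. Of the 110 that fell, 13 passed with a lower effect at 24 h and 21 with a higher one, under the same limit on direction as above. These counts go by the sign of the difference, so the 21 include falls that became rises, such as SNAI2 and THBD below. IL6 had a log2 TAM effect of 2.70 at 4 h and 0.00 at 24 h (difference -2.70 ± 0.38, adjusted p = 3.81e-04), and CCL2 had 7.53 at 4 h and 0.69 at 24 h (difference -6.84 ± 1.72, adjusted p = 0.0344). TNC had 2.52 at 4 h and 5.19 at 24 h (difference 2.67 ± 0.20, adjusted p = 5.59e-07), and STC1 had 3.63 at 4 h and 6.00 at 24 h (difference 2.37 ± 0.37, adjusted p = 8.86e-04). The TAM effect on the cytokines IL6 and CCL2 was thus higher at 4 h, and that on TNC and STC1 higher at 24 h.

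For some genes called at 4 h the effect had the opposite sign at 24 h. SNAI2, which fell by 0.91 on the log2 scale at 4 h, had an effect of 0.52 at 24 h (difference 1.43 ± 0.11, adjusted p = 5.87e-07), and THBD, which fell by 0.86 on the log2 scale, had 1.86 (difference 2.72 ± 0.11, adjusted p = 9.24e-10). FOXQ1 had -0.69 at 4 h and 2.45 at 24 h (difference 3.14 ± 0.20, adjusted p = 6.67e-08). CLDN1, a claudin of tight junctions, had 0.49 at 4 h and -2.37 at 24 h (difference -2.86 ± 0.17, adjusted p = 5.24e-08). The 24 h cells were harvested at another time and carry their own EtOH controls.

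**Figure D5:**
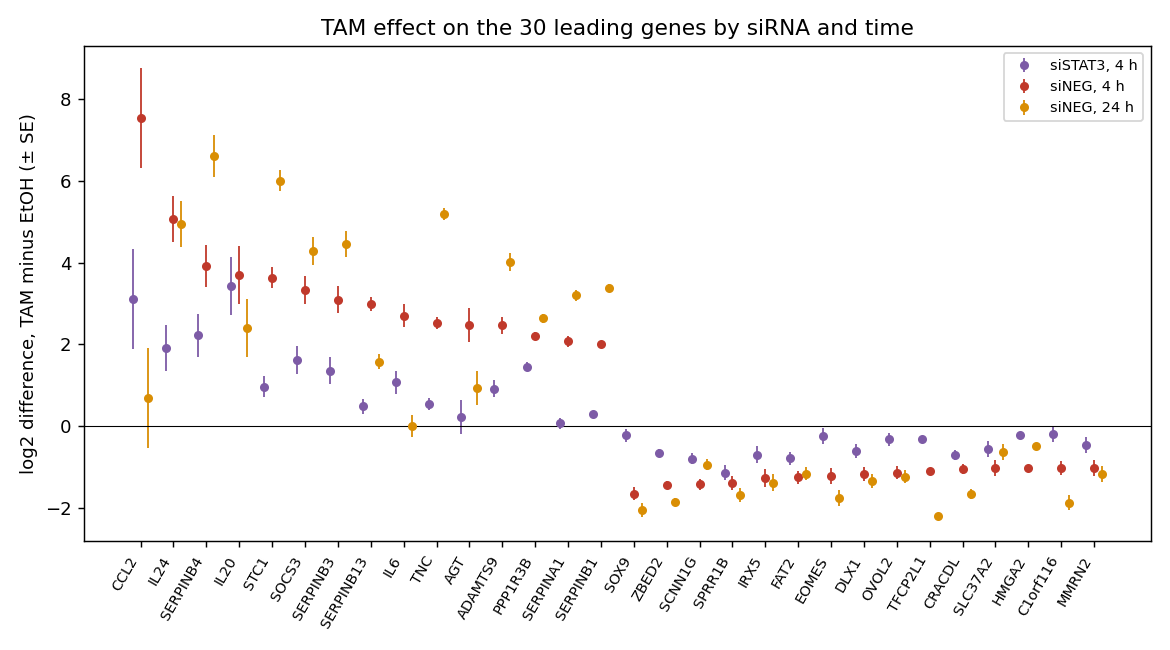
Log2 TAM effect (TAM minus EtOH, points ± SE) on the 30 leading genes in siSTAT3 cells at 4 h, siNEG cells at 4 h and siNEG cells at 24 h. At 4 h the siSTAT3 point of each of the 30 genes lies nearer to 0 than its siNEG point, as for SERPINB1 (0.30 in siSTAT3 cells, 2.00 in siNEG cells), and at 24 h CCL2 and IL6 lie lower than at 4 h (0.69 and 0.00) while TNC and STC1 lie higher (5.19 and 6.00). The genes were chosen for large siNEG effects at 4 h, and this choice alone favors siSTAT3 points nearer to 0.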

How the data were processed

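RNA was hybridised to 23 Affymetrix expression arrays, and the authors computed and deposited a MAS5 signal intensity for each of 54675 probe sets and array, on a linear scale, per the labels' processing notes. The deposited signals of each array have a trimmed mean of 500 units, so every array was scaled to the same level, and a shift of all genes together cannot be seen. No further background correction or normalization was applied. The log2 signal, with nothing added, was fitted with limma 3.58.1 (R 4.3.3) as a mean for each of the 8 groups over 23 arrays, with eBayes and Benjamini-Hochberg adjustment over all probe sets. The number of arrays, 3 in each 4 h group, limits the precision.

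Of the probe sets 41097 had 1 gene symbol in the platform annotation, 1801 several and 11777 none, and only the first were named. Genes named in the text were the 15 largest rises and falls past the stricter limits, with a mean of at least 100 units in the higher group and arrays that did not overlap, and the marked or called members of 49 gene lists. The comparison, members and lists were chosen with earlier results of these data known. Promoters came from RefSeq's GRCh38.p14 table. Alternatives changed the added constant, signal filter, scaling, prior variance, arrays fitted, probe set rule and replicate block. Except in the replicate block, arrays were not paired by replicate number. The fitting step was tested on simulated data. Tables and plots were made with Python 3.11.15, pandas 2.3.3, numpy 2.4.6 and matplotlib 3.10.9.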

Additional observations from a re-analysis of the deposited data

Results flagged for a closer look

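Among the 30 leading genes, those for which the 4 h TAM effect differed by siRNA or by time, by a test of the difference in limma, are given with the difference on the log2 scale. The genes were chosen on the same siNEG arrays that enter these differences.

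The siSTAT3 minus siNEG difference was -2.66 for STC1, -2.5 for SERPINB13, -2.01 for SERPINA1, -1.98 for TNC, -1.7 for SERPINB1, -1.54 for ADAMTS9 and -0.75 for PPP1R3B, all smaller rises in siSTAT3 cells. It was 1.42 for SOX9, 0.81 for HMGA2, 0.8 for ZBED2 and 0.78 for TFCP2L1, all smaller falls in siSTAT3 cells.

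The 24 h minus 4 h difference was -6.84 for CCL2, -2.7 for IL6 and -1.41 for SERPINB13, smaller rises at 24 h. It was 2.67 for TNC, 2.37 for STC1, 1.55 for ADAMTS9, 1.39 for SERPINB1 and 1.13 for SERPINA1, larger rises at 24 h. Among the falls it was -1.12 for TFCP2L1, a larger fall at 24 h, and 0.55 for HMGA2, a smaller one.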

How the results depend on the processing

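None of the 154 called genes examined by name changed direction under the settings in which it was tested, and the other called genes were not checked singly. With a mean of at least 100 units required, 473 genes rose and 636 fell, so that falls outnumbered rises, against 331 and 313 in the fit to all 23 arrays as deposited, the siSTAT3 difference passed for 215 genes, against 103, and the 24 h difference for 1783, against 1105, from a smaller number of probe sets tested. With equal array medians 135 genes fell, 50 at the stricter limits, against 110, and 30 listed genes, against 49. With the prior variance as a trend of signal 532 genes fell and the siSTAT3 difference passed for 197. With a log2 difference over 1 required besides an adjusted p under 0.05, 82 genes rose and 42 fell. With only the 4 h arrays 195 genes rose and 129 fell, 122 and 56 at the stricter limits, 57 and 31 among listed genes, and the siSTAT3 difference passed for 32. With only the siNEG arrays the 24 h difference passed for 599. With only the 6 arrays 36 genes rose and 11 fell, 37 and 11 at the stricter limits, and 15 and 2 among listed genes. These last 3 settings fit fewer arrays. The cause of the other changes was not tested.

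With 1 array left out, 255 to 271 genes rose and 186 to 261 fell, 153 to 166 and 71 to 95 at the stricter limits, and 68 to 79 and 36 to 45 among listed genes. The siSTAT3 difference then passed for 70 to 80 genes and the 24 h difference for 870 to 983. With the replicate block 329 genes rose and 293 fell, and of 154 called genes named, 10 did not pass. The deviations of same-numbered TAM and EtOH arrays correlated at 0.10, -0.02 and 0.00, and those of arrays with different numbers at -0.08 to 0.07. Such values do not settle whether same-numbered arrays were handled together.

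With equal array medians the median of 9 of the 49 lists changed sign, and 5 did with quantile normalization. The share of rises among called probe sets was 55.1% as deposited, 78.7% with equal medians, 60.8% with quantile normalization, 47.1% with at least 100 units, 66.0% with only the 4 h arrays and 76.6% with only the 6 arrays. The median over all probe sets was -0.06 as deposited, -0.01 with quantile normalization and 0.04 with equal medians. Signals near the bottom of the scale, as for CCL2 and IL20 in EtOH cells, limit the precision of fold changes.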
